A study of Drosophila melanogaster with 107 samples.

Results

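Mitochondrial ribosomal proteins are encoded in the nuclear genome of Drosophila melanogaster and imported into mitochondria, where they build the ribosome that translates the messenger RNAs of the mitochondrial genome. The genes were taken by name, as every row whose symbol begins with mRpL (large subunit) or mRpS (small subunit) and a digit, which gave 73 of the 17050 genes in each of the 2 deposited tables. Of the 73, 47 name large-subunit and 26 small-subunit proteins. All 73 were above 0 in some library. After a filter on low values 72 were tested in each table. The member left out was mRpL45 in the developmental table, where its values were 0 to 13 apart from 42 in 1 astrocyte-like library, and mRpL33 in the perturbation table, where its values were 0 to 5.

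The proteins made by this ribosome are core subunits of the respiratory chain and of the ATP synthase, so mitochondrial translation and the nuclear genes of those complexes both contribute to oxidative phosphorylation, the main source of ATP in neurons. Some mitochondrial ribosomal proteins have a counterpart in the bacterial ribosome, and others are found only in mitochondria. Mushroom body γ neurons are the neurons in which the study was set: their larval axons and dendrites are pruned after puparium formation and grow again in the pupa under control of the steroid hormone ecdysone.

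The series holds 107 libraries, each of 1000 cells sorted from dissociated brains by a red nuclear reporter and sequenced from the 3′ ends of polyadenylated transcripts. Perturbed γ neurons expressed E75 RNAi or Sox14 RNAi, against genes of transcription factors in the ecdysone response, or EcR-DN, a receptor form that blocks the response to ecdysone, and were sampled in the third instar (L3) and at 0, 6 and 12 h after puparium formation. Their strain is labelled by the transgene alone, with 2 or 3 libraries per group. Their control, also 2 or 3 libraries per stage, was y,w/+; UAS-RedStinger/+;71G10/+, in which the 71G10 driver expresses the reporter. The developmental table holds γ neurons of this same genotype at 14 stages, in 52 libraries, beside 4 libraries each of adult astrocyte-like cells (UAS-RedStinger over cyo, with alrm-Gal4, UAS-CD8:GFP and UAS-Dcr2 over TM6, tb), adult αβ neurons (y,w/w; UAS-RedStinger/+;NP3061-GAL4/+) and adult neurons outside the mushroom body (non-MB, y,w over C155-GAL4 and UAS-RedStinger over MB247-GAL80, the GAL80 blocking the driver in the mushroom body). Adults were 3 to 5 days old and flies were kept at 25 °C. Each control and developmental group rests on 1 driver line, so its cells are those in which that driver was active.

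Values below are normalized read counts, rounded by the authors, and each table was scaled on its own. A log2 change is a difference of mean log2(value + 1), which understates the change of low genes, and a gene was called at a Benjamini-Hochberg adjusted p under 0.05 in limma over all tested genes. Totals per library ranged from 1343651 to 2068007 across development and from 1896123 to 2501051 for the perturbations. No label says that replicates are separate animals or sorts, so p-values measure only the spread between these libraries. Some libraries stood apart. The value of 1 read, estimated from the spacing of low values where that could be done, was 2.356 to 4.356 normalized reads in the 4 astrocyte-like libraries, and correlations within that group were 0.716 to 0.7405, against a median of 0.9275 over the developmental libraries. It was 2.388 in library A of E75 RNAi at 0 h, with 6649 genes and 63 members above 0. In library B, the only other one of that group, it was 1.412, with 7230 genes and 66 members above 0. The correlation between A and B was 0.8563, which cannot show which of them stands apart. In library 1 of γ neurons at 3 h the value of 1 read was 2.166, with 6752 genes and 66 members above 0 and a within-group correlation of 0.8589. The glial markers (7 genes) summed to 14068 to 25076 in astrocyte-like libraries and to at most 366 in adult neuron libraries, and neuronal markers (6 genes) to 2125 to 2419 in astrocyte-like and 23341 to 39261 in adult neuron libraries, as the labels have it. Kenyon cell markers (10 genes) summed to 41653 to 48554 in adult γ, 21096 to 26196 in αβ, 10553 to 13420 in non-MB and 8077 to 12915 in astrocyte-like libraries, so they were not absent outside the mushroom body. Sox14 was lower in Sox14 RNAi than in control at L3 and 0 h, while at 6 h it averaged 577 in Sox14 RNAi and 487 in control and at 12 h 307 in Sox14 RNAi and 322 in control, with overlap at both stages. Eip75B was not called lower in the libraries labelled E75 RNAi at any stage. At L3 it averaged 18818 in E75 RNAi and 29970 in control without overlap (log2 change −0.68 ± 0.25, adjusted p = 0.152), and at 6 h it averaged 17467 ± 2396.5 there and 7400.5 ± 1531 in control (SD, n = 3 and 2), with a log2 change of 1.25 ± 0.25 (SE, adjusted p = 0.000381). They are therefore called by their label throughout. EcR reads could not check EcR-DN, since 3′ reads of the transgene and of the gene may not be told apart. Eip75B and Sox14 were both called lower in EcR-DN than in control at L3 and 0 h. At L3 Eip75B averaged 4927 in EcR-DN and 29970 in control (limma adjusted p = 1.85e-10). Sox14 averaged 580 in EcR-DN and 6921 in control at L3 (limma adjusted p = 1.31e-13). At 6 h Sox14 was called higher in EcR-DN, 1574 against 487 in control, and Eip75B was not called.

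Members were genes of low to middling value. The median member averaged 27.88 over the developmental libraries, against 38.7 for all tested genes, and 36.26 over the perturbation libraries, against 49.71. The 8 members with the highest developmental mean were mRpL53, mRpS10, mRpS14, mRpL12, mRpL30, mRpL22, mRpS7 and mRpS18A. The value of mRpL53, 234.5 on average, equalled that of CG33155 in every library of both tables. The exons of both genes overlap on the same strand, so its reads cannot be assigned to mRpL53, and the other 7 averaged 49.78 to 75.84. Overlap on the same strand with another gene also affects mRpL13 (with CG10602) and mRpS14 (with CG32533). A further 40 members overlap a gene on the other strand, among them mRpS24, mRpL34, mRpS9, mRpL17, mRpL2, mRpS33, mRpL10, mRpL11, mRpL23, mRpL28, mRpL30, mRpL32, mRpL42, mRpL44, mRpS28 and mRpS18C of those named here. No source used here says whether the counting used strand, so reads of such pairs may not be told apart.

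Across the 14 stages of γ neurons the summed value of the members averaged 2135 ± 414.9 in the second instar (L2, SD, n = 3), 1981 ± 193.3 at L3 (n = 3), 2021 ± 271.3 at 0 h (n = 4), 2780 ± 274.4 at 24 h (n = 4) and 2487 ± 188.1 in adults (n = 4). The 24 h mean was the highest of the 14, also without mRpL53 and as a share of library totals. The L3 mean was the lowest by sum, but 0 h was lowest without mRpL53 (1674 at 0 h and 1732 at L3) and as a share of totals (0.116% at 0 h and 0.119% at L3). Adult sums were 2322 to 2692 and L3 sums 1758 to 2105, a ratio of 1.26, and by sum these groups did not overlap. As a share of library totals they did, at 0.1282% to 0.1554% in adults and 0.0977% to 0.1323% at L3. The ratio of these shares was 1.19. In a bulk library, fewer cells that express a gene and less RNA per cell cannot be told apart.

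**Figure D1:**
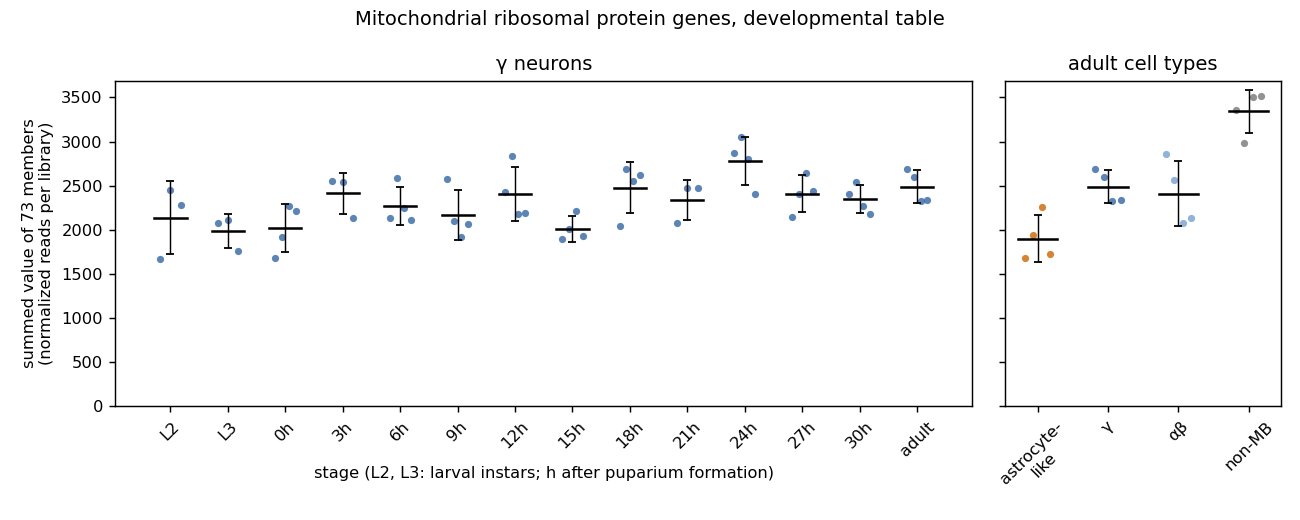
Summed normalized reads of the 73 members per library, across γ neuron stages (left) and in 4 adult cell types (right). Points are libraries, bars are the mean ± SD, and the highest stage mean is 2780 at 24 h.

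A limma F test among the stages called 8 members of 72, 11.1%, where 43.5% of all tested genes were called. They were mRpS11, mRpS24, mRpS10, mRpL34, mRpS14, mRpS9, mRpL12 and mRpL17. The count was 21 when the 4 astrocyte-like libraries, which share the estimate of spread, were left out of the fit, and 13 after scaling to equal totals. The 43.5% belongs to the main fit, and the share of all genes under these other settings is not given here. Of the nuclear respiratory genes 11 of 11 tested ATP synthase genes were called, and 8 of 9 of complex IV, 4 of 6 of complex III and 18 of 33 of complex I. Their lowest p-values belonged to ATPsynC and ATPsyngamma, COX4 and COX6B, UQCR-C1 and UQCR-C2, and ND-MNLL and ND-51. The call was made for 2 of 9 translation factors (CG6412 and EfTuM), 2 of 13 genes of mitochondrial genome upkeep and transcription (mtSSB and mtTFB1), 1 of 14 mitochondrial tRNA synthetases (Aats-met-m) and 0 of 2 mitochondrial ribosomal proteins with other symbols (tko and bonsai). Cytoplasmic ribosomal proteins were called in 72 of 83 cases, led by RpS5a and RpL30. Here and below, counts of calls depend on the number of reads as well as on the size of a change. The median member averaged 27.88 over the developmental libraries. The other lists were not matched to the members in value, and the difference between lists was not tested.

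mRpS10, whose counterpart in Escherichia coli lies in the head of the small subunit, had 31, 42 and 30 at L3, 31, 16, 9 and 21 at 0 h, 79, 62, 81 and 77 at 6 h, 136, 146, 139 and 108 at 24 h and 95, 109, 78 and 76 in adults. All 6 h libraries were above all of 0 h, and the F test gave an adjusted p of 0.00256. mRpS11, a platform protein of the small subunit in E. coli, had 12, 4, 8 and 0 at 0 h, 0, 14 and 3 at 3 h, 31, 39, 36 and 32 at 27 h and 25, 59, 33 and 46 in adults (adjusted p = 0.00013, the smallest of the members). All libraries of 0 and 3 h lay below those of 27 h and of adults. mRpS24, a small-subunit protein, had 1, 8 and 0 at L3, 7, 2, 0 and 5 at 6 h, 26, 25, 20 and 18 at 24 h and 30, 34, 32 and 30 in adults (adjusted p = 0.000351). Its adult libraries stood above all of L3 and 6 h.

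mRpL17, whose E. coli counterpart lies at the exit of the peptide tunnel, and mRpL12, a protein of the stalk that recruits translation factors, had their higher means late in the series. mRpL17 had 8, 24, 0 and 4 at 0 h, 37, 47, 28 and 32 at 30 h and 25, 32, 33 and 39 in adults (adjusted p = 0.041). mRpL12 had 36, 22, 56 and 40 at 0 h, 90, 98, 47 and 86 at 24 h and 64, 73, 66 and 59 in adults (adjusted p = 0.0199).

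The remaining 2 small-subunit members took other courses. mRpS14, a protein of the small-subunit head in E. coli, had 144, 133 and 84 at 3 h, 156, 105, 89 and 74 at 6 h, 54, 33, 66 and 27 at 15 h and 54, 27, 43 and 55 in adults (adjusted p = 0.00583). Its adult libraries lay below all of 3 h and 6 h, and its values may hold reads of CG32533. mRpS9 had 32, 52 and 50 at L3, 21, 15, 13 and 14 at 6 h, 7, 16, 5 and 13 at 9 h and 39, 39, 57 and 29 in adults (adjusted p = 0.00646). All libraries of 6 and 9 h lay below those of L3 and of adults, and the adult libraries overlapped those of L3.

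**Figure D2:**
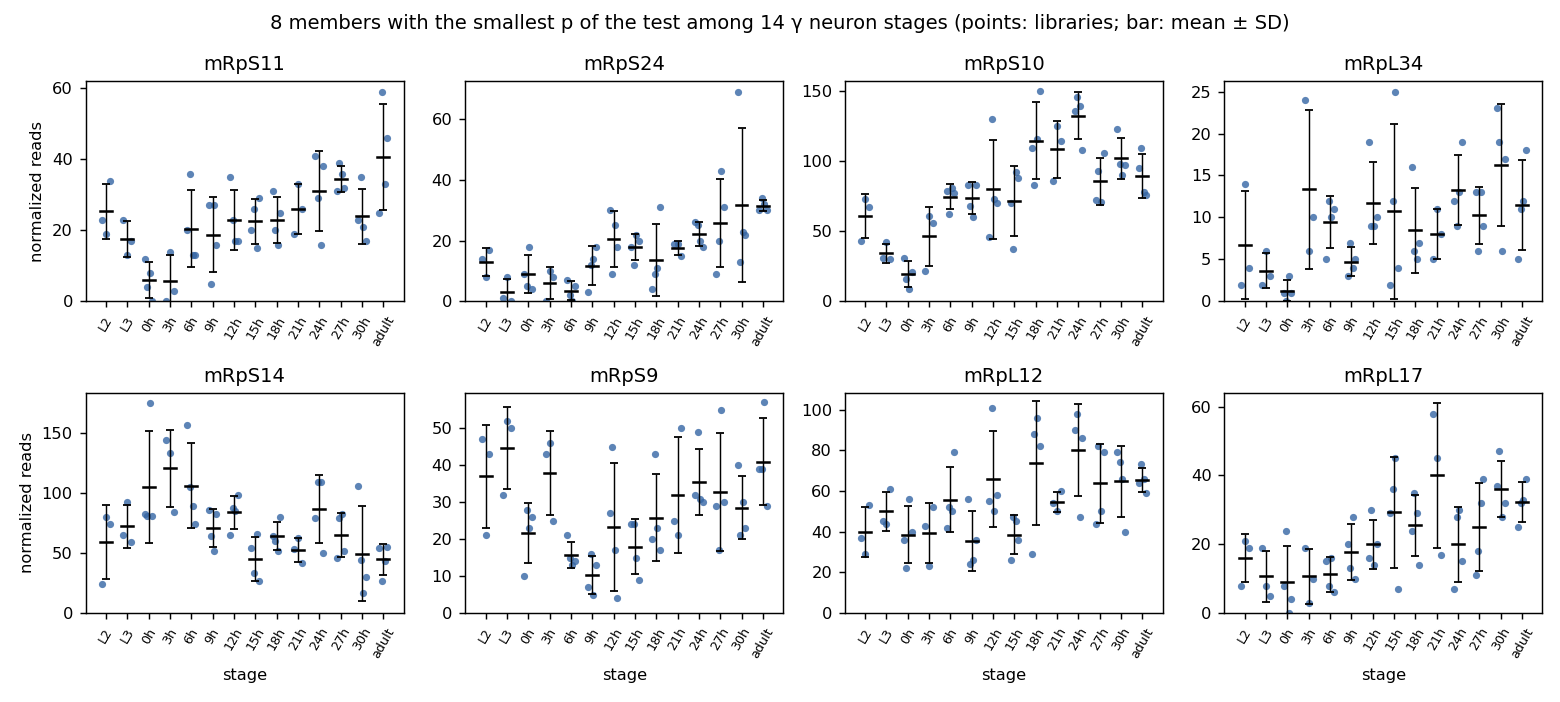
Normalized reads of the 8 called members in γ neurons by stage, one panel a gene, with points for libraries and bars for the mean ± SD. mRpS10 is lowest at 0 h, mRpS14 is highest at 3 h and mRpS9 is lowest at 9 h.

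How alike the courses were was measured by correlating each member's 14 stage means, on the log2 scale, with the median course of the other members. The median r was 0.372 over 72 members, 56 were above 0 and 25 above 0.5. This is a description over stages that share libraries and scaling. mRpS10 (r = 0.857), mRpL34 (0.83) and mRpS28 (0.8) followed the median course most closely, and mRpS18C ran opposite to it (−0.721), with its highest mean at L3 and its lowest at 24 h. mRpS28 and mRpS18C were chosen after their values were seen. The lowest stage mean fell at 0 h in 17 members, at L2 in 14 and at L3 or at 3 h in 10 each, and the highest at 24 h in 14. The median centred course was −0.187 at L3, −0.328 at 0 h, 0.058 at 3 h, 0.315 at 24 h and 0.208 in adults.

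**Figure D3:**
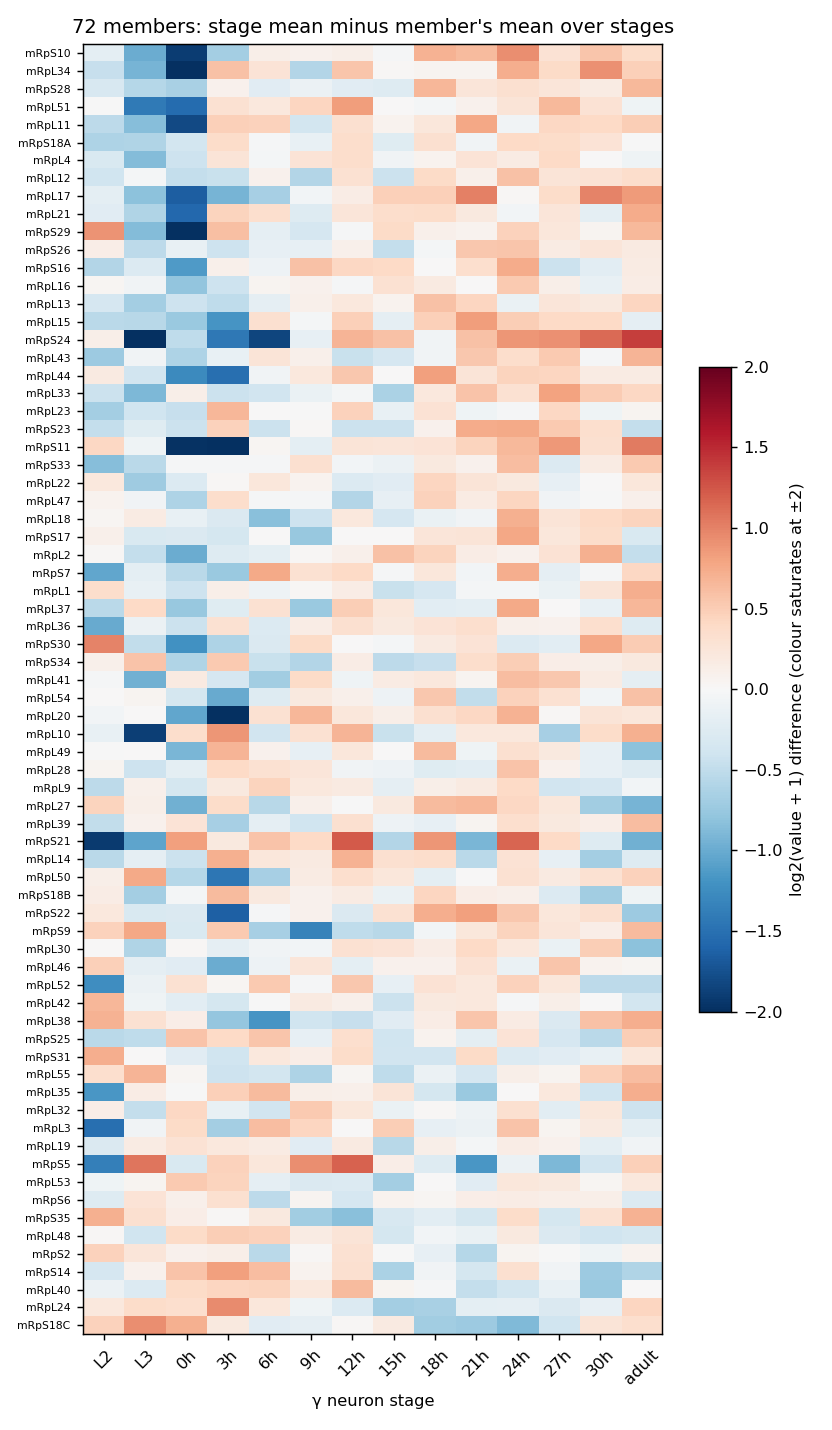
Stage mean of each tested member (rows) minus its mean over the 14 γ neuron stages (columns), on the log2(value + 1) scale, ordered from the highest to the lowest correlation with the median course of the other members. Blue cells, below a member's mean, gather at L3 and 0 h in the upper rows, led by mRpS10 with r = 0.857.

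Between L3 and 0 h 1 member rose and none fell, where 8.53% of tested genes were called and 3.12% rose. mRpL10, a protein of the stalk base in the bacterial ribosome, had 14, 17, 21 and 29 at 0 h and 13, 2 and 1 at L3. The groups did not overlap, and the log2 change was 2.23 ± 0.72 (SE, adjusted p = 0.0402). In this step 18.3% of all tested genes and 8.33% of members did not overlap. The median change of members was −0.18 at 0 h, with 26 of 72 positive, against 0 for all tested genes. Several respiratory genes fell in this step, 4 of 11 for ATP synthase, with ATPsynC at 507 in 0 h and 1302 in L3 libraries (log2 change −1.34 ± 0.19, adjusted p = 4.93e-07). ATPsyngamma followed it, 2 of 33 genes of complex I fell (ND-MNLL and ND-51), and so did 1 each of complex III (UQCR-C1), complex IV (COX4), the tRNA synthetases (Aats-met-m) and the translation factors (CG6412). Both called genes of genome upkeep fell, mtSSB (encoding the single-strand DNA-binding protein of mitochondrial DNA) and mtTFB1. Leaving out L3 library 3 or 4, or 0 h library 2 or 4, ended the call of mRpL10, and 2 members were called without 0 h library 1.

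Between 0 and 6 h, the hours in which pruning begins, 5 members rose and none fell, 6.94% of 72, where 11.6% of all tested genes were called and 6.03% rose. They were mRpL34, mRpL11, mRpS10, mRpS11 and mRpL21. The median log2 change was 0.26, with 51 of 72 positive, beside 0.09 for all tested genes. Under scaling to equal totals the median of all genes was 0.24 and that of members 0.42, and 6 members rose. The summed value was 2112 to 2586 at 6 h and 1684 to 2267 at 0 h, a ratio of 1.12 with overlap. Without mRpL53 it was 1.23.

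mRpL34, a small protein of the large subunit, had 5, 12, 10 and 11 at 6 h and 1, 0, 3 and 1 at 0 h (log2 change 2.33 ± 0.62, adjusted p = 0.0058). mRpL11, which in bacteria forms the base of the stalk, had 14, 27, 31 and 37 at 6 h and 7, 7, 0 and 14 at 0 h (2.26 ± 0.67, adjusted p = 0.0145). All of these libraries were higher at 6 h except for a tie at 14 in mRpL11. mRpS10 changed by 2.02 ± 0.57 (adjusted p = 0.00921) and mRpS11, with 20, 36, 13 and 13 at 6 h, by 2.01 ± 0.60 (adjusted p = 0.0176). mRpL21, chosen after its values were seen, had 29, 55, 48 and 19 at 6 h and 14, 2, 18 and 9 at 0 h (1.90 ± 0.61, adjusted p = 0.0285). Without 0 h library 3 or 6 h library 2 the call was made for 3 members, and without the astrocyte-like libraries for 8. The share of all genes called in these fits is not given here.

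The same step in the separate control libraries of the perturbation table gave 1 member that rose, where 9.51% of genes were called and 4.82% rose. mRpS7, a head protein of the small subunit in E. coli, had 105 and 68 at 6 h and 9, 9 and 64 at 0 h (2.20 ± 0.73, adjusted p = 0.0476). Its lowest 6 h library lay just above the highest of 0 h, and the call was lost without either 6 h library and without 0 h library A or B. Of the 5 members called in the developmental table, none was called here. With 2 libraries against 3, 17 of 72 members were higher at 6 h without overlap, 23.6%, where 16.8% of all tested genes were. mRpS10 had 110 and 145 at 6 h and 43, 56 and 64 at 0 h (1.22 ± 0.55, adjusted p = 0.187). mRpL11 had 40 and 39 at 6 h and 11, 5 and 12 at 0 h (2.05 ± 0.82, adjusted p = 0.123). mRpL34 had 9 and 4 at 6 h and 0, 1 and 1 at 0 h (2.16 ± 1.13, adjusted p = 0.274). These were among the 17, while mRpS11 and mRpL21 overlapped. The summed value was 3721 to 3990 in control at 6 h and 2982 to 3547 at 0 h, a ratio of 1.21 with no overlap, and the median change was 0.58 beside 0.11 for all tested genes. Genes above 0 numbered 7855 to 8085 at 6 h and 7100 to 7686 at 0 h, and the part of depth was not tested.

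Among the other mitochondrial lists the 0 to 6 h step of the developmental table called 3 of 11 ATP synthase genes higher, including ATPsynC, 1043.5 at 6 h and 507 at 0 h (1.04 ± 0.18, adjusted p = 8.6e-06), and ATPsynD. ND-MNLL of complex I was called higher, alone among 33, and so was Aats-met-m among 14 tRNA synthetases. mtTFB1, from the genome upkeep and transcription list, averaged 37.8 at 6 h and 9.5 at 0 h (2.30 ± 0.47, adjusted p = 0.000187), and mtSSB rose too. Of 83 cytoplasmic ribosomal proteins 9 fell and none rose, led by RpS29 and RpL5.

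From 6 to 18 h and from 18 to 30 h no member was called by limma, with 2 at an unadjusted p under 0.05 in each step, where 12.4% and 1.29% of tested genes were called. In the step to 18 h 9 of 11 ATP synthase genes rose and none fell, with ATPsynC averaging 3306.8 at 18 h and 1043.5 at 6 h (1.67 ± 0.18, adjusted p = 4.89e-11), and the median of members was 0.20. Between 30 h and the adult 1 member fell, where 18.6% of genes were called and 9.35% fell. The median of members was 0.11 in that step and −0.10 after scaling to equal totals, while that of all genes was −0.05 and −0.24. mRpL30 had 44, 22, 42 and 16 in adults and 111, 67, 56 and 64 at 30 h, without overlap (−1.31 ± 0.43, adjusted p = 0.0244). In that step 24.7% of all tested genes and 5.56% of members did not overlap. The call was lost without 30 h library 1 and without adult library 2 or 4.

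Adult against L3 γ neurons gave 2 members that rose and none that fell, where 20% of tested genes were called and 9.34% rose. mRpS24 had 30, 34, 32 and 30 in adults and 1, 8 and 0 at L3 (3.63 ± 0.80, adjusted p = 0.000419). mRpL10 had 30, 26, 25 and 21 in adults and 13, 2 and 1 at L3 (2.59 ± 0.72, adjusted p = 0.00616). Neither overlapped, where 28.6% of all tested genes and 19.4% of members did not, and 1 of the 2 calls was lost without L3 library 4. The median member changed by 0.28, with 50 of 72 positive, while the median of all genes was −0.01. Of the nuclear respiratory lists 7 of 11 ATP synthase genes (led by ATPsynC, 3972.5 in adults and 1302 at L3, and ATPsynB), 13 of 33 of complex I (ND-51 and ND-MNLL), 2 of 6 of complex III (UQCR-C2 and UQCR-C1) and 6 of 9 of complex IV (COX5A and COX4) rose, and none fell. Of the cytoplasmic ribosomal proteins 63 of 83 fell and none rose, with RpL30 averaging 167.5 in adults and 670.7 at L3 (−2.01 ± 0.19, adjusted p = 1.47e-12), followed by RpS5a. No gene of the translation factor, tRNA synthetase or genome upkeep lists was called.

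Among adult cell types, γ neurons had lower values than non-MB neurons. Summed values were 2322 to 2692 in γ and 2989 to 3519 in non-MB neurons, a ratio of 0.744 with no overlap. The median log2 change of members was −0.52, with 14 of 72 positive, beside −0.15 for all tested genes. Of single members 2 were called lower in γ neurons, where 14.5% of genes were called and 9.92% were lower. mRpL28 had 52, 36, 25 and 18 in γ and 75, 76, 68 and 55 in non-MB neurons (−1.14 ± 0.36, adjusted p = 0.0223). mRpL27, whose E. coli counterpart lies near the peptidyl transferase centre, had 7, 21, 8 and 10 in γ and 28, 28, 39 and 37 in non-MB neurons (−1.55 ± 0.52, adjusted p = 0.0346). Neither overlapped, where 22.2% of all tested genes and 15.3% of members did not. The call was lost for both without γ library 3 or 4, and 1 was called without any 1 of the non-MB libraries. With the astrocyte-like libraries out of the fit 4 were called, and 7 with only these 2 groups in it. The share of all genes called in these fits is not given here, so these counts do not set members against other genes. Respiratory genes were lower in γ neurons as well: 15 of 33 of complex I (ND-ASHI and ND-SGDH first), 4 of 9 of complex IV (COX6B and COX4), 2 of 11 of ATP synthase (ATPsynG and ATPsyngamma) and 1 of 6 of complex III (UQCR-Q), with DNApol-gamma35 of the genome upkeep list. Of 83 cytoplasmic ribosomal proteins 22 were higher in γ neurons, led by RpS23 and RpL26. Glial markers summed to 46 to 79 in γ and 188 to 366 in non-MB libraries, and their part in these differences was not tested. Summed values in αβ neurons were 2082 to 2856, and they too lay below all non-MB libraries. The ratio of γ to αβ sums was 1.03, with overlap. Between γ and αβ neurons no member was called by limma, with 5 at an unadjusted p under 0.05, where 7.51% of genes were called, and leaving out γ library 3 or αβ library 3 gave 1.

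In adult astrocyte-like cells most members were lower than in the 3 adult neuron types. Of 72 members 41 were called lower and 1 higher, 58.3% in all, and 60% of all tested genes were called in this comparison, 37.4% lower and 22.6% higher. The median member changed by −1.31, with 12 of 72 positive, and the median of all genes by −0.45. Summed values were 1678 to 2254 in astrocyte-like and 2082 to 3519 in neuron libraries, a ratio of 0.692 with overlap, or 0.606 as a share of library totals. Depth moved with this result: the 4 astrocyte-like libraries held an estimated 446 to 733 reads of the members, and 52 of 73 members were at 0 in at least 1 of them, against 3 of 73 in γ, 7 in αβ and 2 in non-MB neurons. The part of depth in these calls was not tested, and counting error alone, with 1 read worth 2.356 to 4.356 units, is large for single members.

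mRpL44, which in mammals is a large-subunit protein found only in mitochondria, had 0, 4, 0 and 0 in astrocyte-like cells, and its lowest, median and highest values in the 12 neuron libraries were 17, 39.5 and 54. The groups did not overlap (adjusted p = 2.8e-11), and since 4 is the value of about 1 read in that library no fold is given. mRpL36 had 0, 0, 0 and 35 in astrocyte-like and 18 to 75 in neuron libraries (−4.01 ± 0.51, adjusted p = 9.91e-10). mRpL20 had 0, 0, 0 and 40 in astrocyte-like and 14 to 55 in neuron libraries (−3.62 ± 0.58, adjusted p = 3.02e-07). In both, 1 astrocyte-like library stood inside the neuron range and the others at 0. mRpL53, with the reads of CG33155, had 77, 0, 103 and 87 in astrocyte-like and 106 to 338 in neuron libraries, and mRpL12 had 40, 48, 27 and 38 in astrocyte-like and 49 to 95 in neuron libraries. Neither overlapped. With mRpL44 they were the only 3 of 72 tested members without overlap, and the share over all tested genes was not computed. mRpL42 was the member called higher, with 72, 43, 133 and 97 in astrocyte-like and 20 to 57 in neuron libraries (1.23 ± 0.30, adjusted p = 0.000419), and 1 of its 4 astrocyte-like libraries overlapped the neurons.

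Other gene lists were called in both directions in astrocyte-like cells, and their difference from the members was not tested. Of 83 cytoplasmic ribosomal proteins 79 were higher and none lower, with RpL22 averaging 9954 in astrocyte-like cells and 836 in neurons (3.57 ± 0.11, adjusted p = 2.8e-34), followed by RpL17. ATP synthase had 5 of 11 higher (led by ATPsynD and ATPsyngamma) and 1 lower, and complex I 4 of 33 higher and 3 lower (ND-15 lower and ND-B18 higher with the smallest p). UQCR-Q of complex III was higher and none of 9 genes of complex IV was called by limma. Of 14 mitochondrial tRNA synthetases 3 were lower, CG31739 and Aats-met-m with the smallest p, and of 9 translation factors 2 were lower (CG6412 with the smaller p) and 1, EF-G2, was higher. Of 13 genome upkeep genes TFAM was lower, and 2, among them mtRNApol, were higher. Of the mitochondrial ribosomal proteins with other symbols bonsai was lower, averaging 5 in astrocyte-like cells and 35.9 in neurons (−2.97 ± 0.47, adjusted p = 2.14e-07).

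In the perturbation table the members were higher in EcR-DN than in control neurons at L3 and 0 h as a sum, and few of them singly. Summed values at L3 were 4118 to 4131 in EcR-DN and 3070 to 3575 in control, a ratio of 1.24, or 1.37 without mRpL53. At 0 h they were 3700 to 4474 in EcR-DN and 2982 to 3547 in control, a ratio of 1.25. By sum neither pair of groups overlapped, while at 6 and 12 h they did, with ratios of 0.964 and 1.07. As a share of library totals the 0 h groups overlapped, at 0.1543% to 0.2002% in EcR-DN and 0.1205% to 0.1565% in control. Signs of depth moved with the 0 h result: 8012 to 8542 genes were above 0 in EcR-DN and 7100 to 7686 in control. The value of 1 read was 1.79 in control 0 h library A and 1.174 in library B. Their part in the result was not tested.

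**Figure D4:**
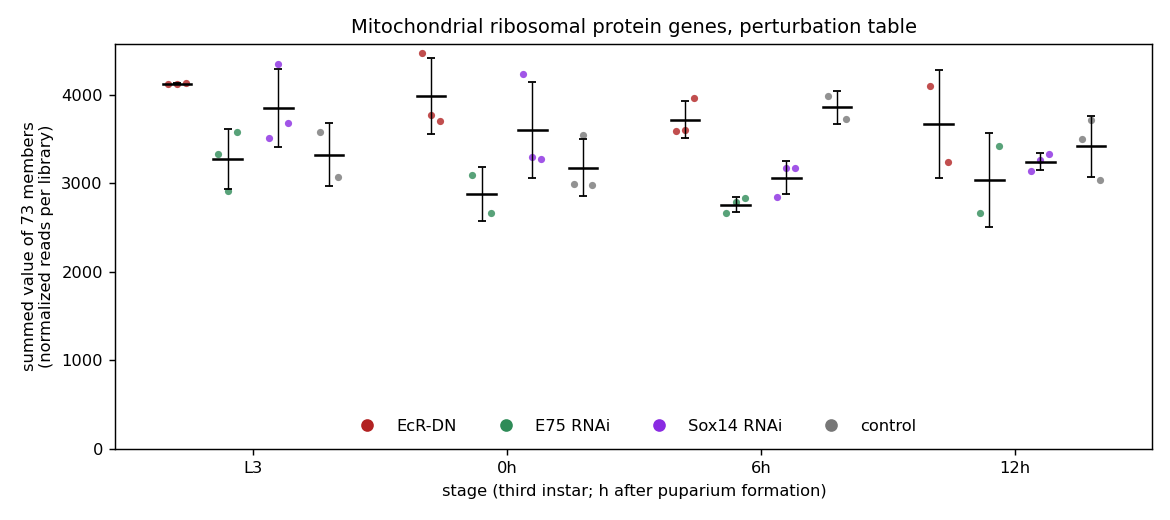
Summed normalized reads of the 73 members per library by stage, with EcR-DN, E75 RNAi, Sox14 RNAi and control from left to right at each stage. Points are libraries and bars the mean ± SD; at 6 h the E75 RNAi libraries (2660 to 2828) lie below control (3721 to 3990).

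At L3 3 members were called higher in EcR-DN and none lower, where 8.24% of tested genes were called and 3.84% were higher, and the median was 0.50 with 53 of 72 positive, beside 0.05 for all genes. mRpL2, which lies near the peptidyl transferase centre in bacteria, had 116, 84 and 62 in EcR-DN and 7 and 16 in control (2.88 ± 0.79, adjusted p = 0.0142). mRpS33 had 30, 37 and 106 in EcR-DN and 0 and 16 in control (3.60 ± 0.98, adjusted p = 0.0133). mRpS24 had 46, 29 and 39 in EcR-DN and 8 and 0 in control (3.68 ± 1.17, adjusted p = 0.0415). None of the 3 overlapped, and the control had 2 libraries. In this comparison 34.6% of all tested genes and 31.9% of members did not overlap. At 0 h mRpL2 was the 1 member called, with 52, 30 and 41 in EcR-DN and 5, 14 and 10 in control (2.04 ± 0.71, adjusted p = 0.0387), where 16.8% of genes were called and 10.4% were higher. At 6 h mRpL2 had 46, 7 and 39 in EcR-DN and 27 and 55 in control, and no member was called at 6 or 12 h (2 and 6 at an unadjusted p under 0.05 in limma, where 6.85% and 4.82% of genes were called) or over the mean of the pupal stages (8 unadjusted, 16.5%).

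The EcR-DN effect at 6 h minus that at L3 was called for no member, with 6 at an unadjusted p under 0.05 in limma and 5.05% of genes called. For mRpL2 the difference was −3.56 ± 1.12 (adjusted p = 0.0537), and 1 member was called without control L3 library C or EcR-DN 6 h library A or C. The L3 count was 1 without control library B and without EcR-DN library A or C, and 0 with only these 2 groups in the fit. At 0 h the call of mRpL2 was lost without control library A and without EcR-DN library A or B, and 2 members were called without control library B. Over the pupal mean the count was 1 without control 0 h library A or C, control 12 h library A or EcR-DN 0 h library B, 2 without control 0 h library B and 4 without control 6 h library A.

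A few other genes of the mitochondrion were called higher in EcR-DN at the same stages. At L3 they were 2 of 11 ATP synthase genes (ATPsynC and ATPsyngamma), 1 of 35 of complex I (ND-51), 1 of 6 of complex III (UQCR-C1) and 1 of 15 tRNA synthetases (Aats-pro), with none of 9 of complex IV, 9 translation factors or 13 genome upkeep genes and none lower by limma, where 3.84% of all tested genes were higher. ATPsynC averaged 4946 in EcR-DN and 1754.5 in control (1.54 ± 0.27, adjusted p = 5.5e-05). At 0 h 3 of 11 ATP synthase genes (ATPsynC and ATPsyngamma first), 4 of 35 of complex I (ND-51 and ND-23 first), COX4 (of 9 of complex IV), mtRNApol (of 13 genome upkeep genes) and CG31739 (of 15 tRNA synthetases) were higher, and 10 of 83 cytoplasmic ribosomal proteins were lower, led by RpL36 and RpL7A. Markers of other cells moved with these libraries. The neuroblast and dividing cell list (7 genes) summed to 166 to 303 in EcR-DN and 11 to 73 in control at L3, and to 98 to 208 in EcR-DN and 7 to 120 in control at 0 h. In control wor was at 0 at L3, and mira and ase were at 0 at 0 h, while no marker of the list was at 0 in EcR-DN at either stage. Neuronal markers summed to 18537 to 19036 in EcR-DN and 10523 to 12558 in control at L3. Kenyon cell markers summed to 32366 to 35872 in EcR-DN and 79045 to 79669 in control at L3. The part of these differences in the member results was not tested.

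In the libraries labelled E75 RNAi the members were lower than in control at 6 h as a sum, and few of them singly. Summed values were 2660 to 2828 in E75 RNAi and 3721 to 3990 in control, a ratio of 0.715 without overlap, or 0.628 as a share of library totals. The median log2 change was −0.76, with 13 of 72 positive, beside −0.14 for all tested genes. Under scaling to equal totals those medians were −0.93 and −0.30. Of single members 4 were called lower and none higher, 5.56%, where 8.39% of genes were called and 3.64% were lower. Signs of depth moved with this result: 7050 to 7594 genes and 65 to 68 members were above 0 in E75 RNAi, against 7855 to 8085 genes and 70 to 72 members in control. The value of 1 read was 1.136 to 1.574 in E75 RNAi and 1.062 in control library C. Their part in the result was not tested. At L3 no member was called in E75 RNAi, with 0 at an unadjusted p under 0.05 in limma (3.2% of genes called) and a ratio of sums of 0.986.

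mRpL27 had 5, 10 and 17 in E75 RNAi and 56 and 71 in control at 6 h (−2.60 ± 0.84, adjusted p = 0.0428). mRpL23, which in E. coli lies at the exit of the peptide tunnel, had 1, 6 and 0 in E75 RNAi and 8 and 33 in control (−2.86 ± 0.92, adjusted p = 0.042). mRpL32 was listed at 0 in all 3 E75 RNAi libraries and had 5 and 46 in control (adjusted p = 0.0367). These groups did not overlap, though for mRpL23 and mRpL32 the lower control library was close to the E75 RNAi values. In this comparison 29.8% of all tested genes and 31.9% of members did not overlap. mRpS17, chosen after its values were seen, had 8, 2 and 5 in E75 RNAi and 25 and 28 in control (−2.33 ± 0.70, adjusted p = 0.0281). The count was 0 without control library C and with only these 2 groups in the fit, 2 without any 1 of the E75 RNAi libraries and 1 with a pseudocount of 4.

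At 0 h 2 members were called lower, where 6.75% of genes were called and 3.28% were lower. mRpS18A, a protein of the bacterial S18 family, had 2 and 7 in E75 RNAi and 23, 18 and 22 in control (−2.16 ± 0.64, adjusted p = 0.0315). mRpL13 had 2 and 23 in E75 RNAi and 61, 56 and 37 in control (−2.59 ± 0.79, adjusted p = 0.0352). Neither overlapped, where 23.9% of all tested genes and 23.6% of members did not. E75 RNAi had 2 libraries, of which library A had the fewest estimated reads of the table where an estimate could be made, 1010778. Without library A neither call was kept (adjusted p = 0.366 for mRpS18A and 0.64 for mRpL13), and 2 other members were called. The count was 7 without E75 RNAi library B, 1 without control library B or C, and 0 without control library A, with only these 2 groups or with a pseudocount of 4. At 12 h no member was called by limma (2 at an unadjusted p under 0.05, where 4.42% of genes were called).

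Over the mean of the 3 pupal stages 5 members were lower in E75 RNAi and none higher, 6.94%, where 12.6% of genes were called and 5.58% were lower. The largest decreases were in mRpL32 (adjusted p = 0.0233, with no fold given because it was listed at 0 throughout E75 RNAi at 6 h), mRpL23 (−2.01 ± 0.53, adjusted p = 0.00681) and mRpL13 (−1.68 ± 0.45, adjusted p = 0.0083), beside mRpS28, chosen after its values were seen, and mRpS18A. At 12 h mRpL23 had 9 and 7 in E75 RNAi and 28, 39 and 30 in control, and at 0 h 5 and 20 in E75 RNAi and 34, 22 and 24 in control. Its groups did not overlap at any of the 3 pupal stages, where at 12 h 25.9% of all tested genes and 20.8% of members did not. The count was 3 without control 6 h library C, E75 RNAi 0 h library A or E75 RNAi 12 h library A, and 10 without E75 RNAi 0 h library B.

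**Figure D5:**
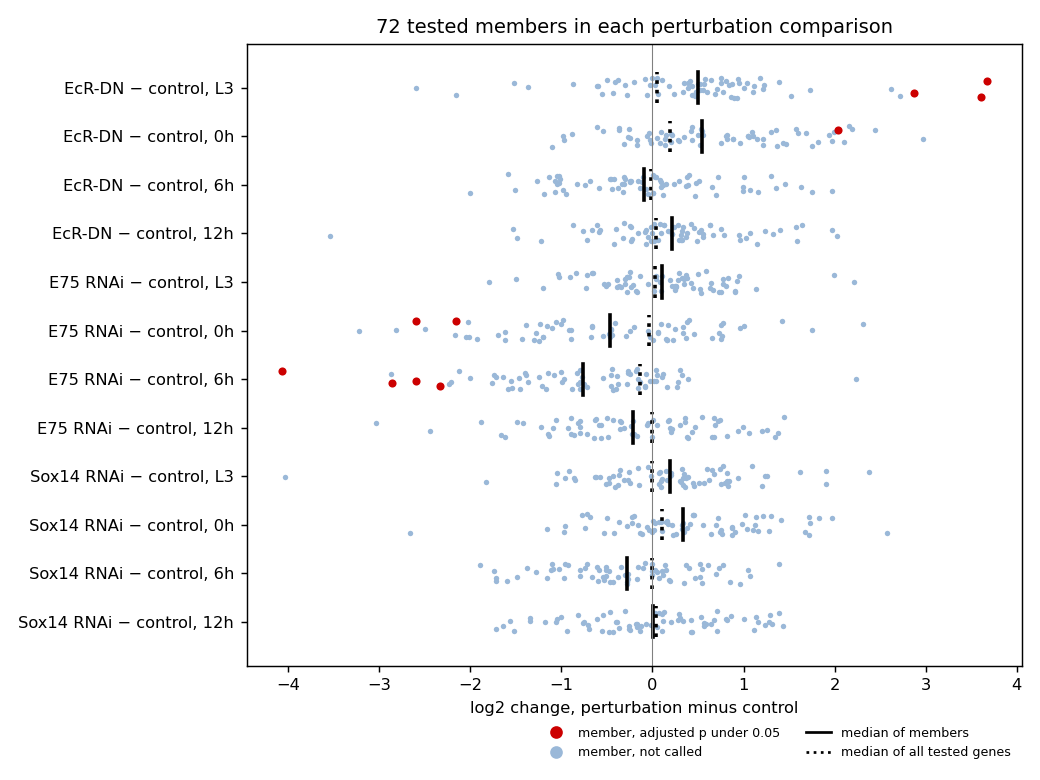
Log2 change of each tested member (points) between perturbed and control libraries at each stage, with red points at an adjusted p under 0.05, the median of members as a solid bar and of all tested genes as a dotted bar. At 6 h in E75 RNAi the member median is −0.76 and that of all genes −0.14, and the leftmost red point is mRpL32, listed at 0 in E75 RNAi, whose position depends on the pseudocount.

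Whether the 6 h effect of E75 RNAi differed from other stages was tested directly. Its effect at 6 h minus that at L3 was called for no member, with 6 at an unadjusted p under 0.05 in limma, where 5.78% of genes were called, and a median of −0.87 beside −0.20 for all genes. The change between 0 and 6 h in E75 RNAi minus that in control was called for mRpS17 alone of the members, where 4.07% of genes were called and 1.69% were lower. mRpS17 had 8, 2 and 5 at 6 h and 55 and 30 at 0 h in E75 RNAi, against 25 and 28 at 6 h and 13, 16 and 7 at 0 h in control (−4.08 ± 0.99, adjusted p = 0.00981). It was thus above control at 0 h, without being called there, and below it at 6 h. The call was lost without E75 RNAi 0 h library A (−3.66, adjusted p = 0.0688) and with only these 4 groups in the fit (adjusted p = 0.143), and 3 members were called without E75 RNAi 0 h library B and 2 without E75 RNAi 6 h library C. For the 6 h effect minus the L3 effect 1 member was called without E75 RNAi 6 h library A.

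Some other mitochondrial genes were also called lower in E75 RNAi at 6 h. Of 11 ATP synthase genes 4 were lower, with ATPsynC averaging 748 in E75 RNAi and 2194.5 in control (−1.55 ± 0.27, adjusted p = 4.76e-05) and ATPsynD 294 in E75 RNAi and 765.5 in control (−1.45 ± 0.25, adjusted p = 5.29e-05). COX6B (of 9 of complex IV), UQCR-6.4 (of 6 of complex III), Aats-met-m (of 15 tRNA synthetases) and tko, which encodes mitochondrial ribosomal protein S12, were also lower. No gene of complex I (35), the translation factors (9) or genome upkeep (13) was called by limma at 6 h. Of 83 cytoplasmic ribosomal proteins 4 were lower, led by RpS29 and RpS15Aa, and their median was −0.09. Neuroblast markers summed to 48 to 197 in E75 RNAi and 22 to 24 in control at 6 h, with ase, CycB and Mcm2 at 0 in E75 RNAi and wor, ase and Mcm2 at 0 in control. Neuronal markers summed to 16103 to 18577 in E75 RNAi and 6098 to 7430 in control, and glial markers to 13 to 37 in E75 RNAi and 27 to 28 in control. Their part in the result was not tested.

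Sox14 RNAi changed no member past the threshold. The counts were 0 at L3, 0, 6 and 12 h and over the pupal mean, with 4, 9, 2, 3 and 3 members at an unadjusted p under 0.05 in limma, where 1.74%, 8.55%, 5.98%, 1.61% and 11.6% of tested genes were called. At L3 summed values were 3510 to 4350 in Sox14 RNAi and 3070 to 3575 in control, a ratio of 1.16. At 0 h they were 3276 to 4230 in Sox14 RNAi and 2982 to 3547 in control, a ratio of 1.13. Both pairs overlapped, though at L3 not without mRpL53. Without mRpL53 the ratios were 1.25 and 1.2, beside 1.37 and 1.35 for EcR-DN against the same controls. The median log2 changes were 0.20 at L3 and 0.33 at 0 h, beside 0 and 0.10 for all genes. At 6 h summed values were 2843 to 3174 in Sox14 RNAi and 3721 to 3990 in control, a ratio of 0.794 without overlap, and the median log2 change was −0.28 beside 0 for all genes. The members called in E75 RNAi at that stage had, in Sox14 RNAi, 36, 41 and 57 (mRpL27), 19, 14 and 52 (mRpL23), 20, 28 and 38 (mRpL32) and 25, 34 and 48 (mRpS17), which overlapped the control in each case. Both perturbations were set against the same 2 control libraries at 6 h. At 0 h 1 member was called without control library B or C, and 1 over the pupal mean without Sox14 RNAi 0 h library B.

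Along the control itself no member was called between L3 and 0 h or between 6 and 12 h, with 5 and 3 at an unadjusted p under 0.05 in limma, where 1.54% and 4.74% of genes were called. Summed values were 3039 to 3711 at 12 h and 3721 to 3990 at 6 h, and 1 member was called without control 12 h library C.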

How the data were processed

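The series was sequenced by MARS-seq, a method for the 3′ ends of transcripts, from 1000 sorted cells per library. The values are scores in the sense of normalized read counts rounded to whole numbers, which the authors deposited as 2 tables, and per the file headers they are normalized; the method of normalization is not stated. Per the submitters' processing notes, bcl2fastq, HISAT 0.1.5 and HOMER were used, with no role named. Libraries were matched to labels by column name. The value of 1 read could be estimated in 17 developmental and 15 perturbation libraries, which held an estimated 474749 to 1686085 and 1010778 to 2059517 reads.

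A gene was tested if it reached 10 in 3 or more libraries of the developmental table (8320 genes) or 2 or more of the perturbation table (8656 genes). Values were taken as log2(value + 1) and fitted in R 4.3.3 with limma 3.58.1, all groups of a table in 1 fit, with moderated variances that follow mean expression. Tests were two-sided and adjusted by Benjamini-Hochberg over all tested genes, with a threshold of 0.05. The fits were tested on simulated data. Tables were scaled separately, so tests stay within a table. Sums over members are descriptions and carry no test.

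Members, gene lists and tests were chosen with earlier results of these data known. Members were named if they were among the 8 of highest developmental mean, the 8 smallest p of the F test, or the 3 largest called increases or decreases of a comparison whose higher group averaged 10 or more. Of each other list, the 2 called genes with the smallest p were named. Alternatives were a pseudocount of 4, no filter, 2 other scalings, robust variances, only the groups compared, a replicate block and leaving out each library. Differences of effects between stages were added after seeing the data. Replicate numbers did not pair libraries. No promoter, miRNA or protein sequence was used here, and overlaps between genes come from an annotation whose build may differ from that of the counts.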

Additional observations from a re-analysis of the deposited data

Results flagged for a closer look

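In the astrocyte-like group 3 members were above 0 in 1 library and at 0 in the other 3, of 44 groups of 4 libraries looked at. Any such pattern is flagged whatever the size of the value above 0, so the usual rate of 1 in 20 does not apply. These members were looked at because they were called lower in the same libraries. The highest astrocyte-like value was 4 for mRpL44, in library 2, where it is about 1 read. In library 4 it was 35 for mRpL36 and 40 for mRpL20.

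The change between 0 and 6 h differed between E75 RNAi and control for mRpS17, by −4.08 on the log2 scale (adjusted p = 0.00981 in limma), and by −3.66 without E75 RNAi 0 h library A (adjusted p = 0.0688). mRpL27 was above every control library in E75 RNAi at 0 h, averaging 54.5, with 62 and 47 in E75 RNAi and 25, 38 and 35 in control. At 6 h it was below every control library. The change between 0 and 6 h in E75 RNAi minus that in control was −3.33 ± 1.18 for mRpL27 and was not called (adjusted p = 0.111 in limma). mRpS18A was above every control library in EcR-DN at 0 h, averaging 54.0, with 98, 40 and 24 in EcR-DN and 23, 18 and 22 in control. At 12 h it had 43 and 12 in EcR-DN and 62, 47 and 99 in control, and this difference between stages was not tested.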

How the results depend on the processing

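Counts of called members were small and moved by over 1.5 times under several settings. Here and above, counts under other settings stand without the share of all tested genes called under the same setting. They therefore do not set the members against other genes. Without the filter on low values, 0 members were called between 0 h and L3 and 0 between 6 h and 0 h in control. With only the groups compared in the fit, the counts were 0 for 0 h against L3, 2 for 18 h against 6 h, 2 for adult against 30 h, 7 for γ against non-MB neurons and 22 for the F test. In the perturbation table they were then 0 for EcR-DN at L3, 1 for its pupal mean, 0 for E75 RNAi at 0 h, 0 at 6 h and 3 for its pupal mean, and 0 for control at 6 h against 0 h. Scaling to equal totals gave 13 in the F test and 2 in control at 6 h against 0 h. Without the 4 astrocyte-like libraries, chosen after seeing the data like the scaling to equal totals, counts were 2 for 0 h against L3, 8 for 6 h against 0 h, 4 for adult against L3, 3 for γ against αβ, 4 for γ against non-MB and 21 in the F test. A pseudocount of 4 gave 2 for EcR-DN at 0 h, 1 for its pupal mean, 0 for E75 RNAi at 0 h and 1 at 6 h. Robust variances gave 3 for EcR-DN and 1 for Sox14 RNAi at 0 h. For the effect at 6 h minus that at L3, 1 member was called in EcR-DN with a pseudocount of 4 and with equal totals, and 1 in each of EcR-DN and E75 RNAi without the filter and with robust variances. The E75 RNAi change from 0 to 6 h minus that in control gave 0 with only the groups compared. Median-ratio scaling moved no count by over 1.5 times. The causes were not tested.

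With the replicate block 0 members were called for 0 h against L3 and 0 for control at 6 h against 0 h, and no other count moved by over 1.5 times. The numbers do not pair libraries: same-numbered libraries of different groups deviated with a median correlation of 0.000418 for the developmental and of −0.00114 for the perturbation libraries, and 20 of 64 and 11 of 43 libraries correlated best with their own number.

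Leaving out 1 library at a time gave 0 to 2 for 0 h against L3, 3 to 6 for 6 h against 0 h, 0 to 1 for adult against 30 h, 1 to 2 for adult against L3, 0 to 1 for γ against αβ and 0 to 3 for γ against non-MB. Astrocyte-like against neurons gave 39 to 46 and the F test 7 to 10. EcR-DN gave 1 to 2 at L3, 0 to 2 at 0 h and 0 to 4 for the pupal mean. E75 RNAi gave 0 to 7 at 0 h, 0 to 3 at 6 h and 3 to 10 for the pupal mean. Sox14 RNAi gave 0 to 1 at 0 h and for the pupal mean, and control 0 to 1 for 6 h against 0 h and for 12 h against 6 h. The difference of effects between 6 h and L3 gave 0 to 1 for E75 RNAi and 0 to 1 for EcR-DN, and the change from 0 to 6 h in E75 RNAi minus that in control 1 to 3. The comparisons not listed here kept a count of 0. The direction of 1 called member turned: mRpL14 in astrocyte-like cells ran from −1.98 to 0.078 on the log2 scale, the last without astrocyte-like replicate 2. In the astrocyte-like libraries 1 read was worth 2.356 to 4.356 normalized reads, and the part of counting error in this turn was not tested.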
